A study of Mus musculus with 6 samples.

Results

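The genes of the unfolded protein response and of the integrated stress response were examined in mouse embryonic fibroblasts with and without Zmpste24, whose product cleaves prelamin A into the lamina protein lamin A. The set has 36 members, chosen by name: chaperones and folding enzymes of the endoplasmic reticulum (ER), genes of ER-associated degradation, stress sensors, stress transcription factors and genes regulated by the transcription factor ATF4. All 36 had at least 1 probe set that carried their symbol alone, of 18193 genes with such a probe set, and all 36 were among the 13038 genes bright enough to be tested. Each gene was read by its brightest such probe set. Levels are given as signal, the linear intensity of a probe set, which ranks arrays for one gene but does not rank genes against each other. Differences are given as log2 of the signal after 16 was added.

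RNA was measured in 3 wild-type (Zmpste24+/+) and 3 Zmpste24-/- cultures of C57BL/6 embryonic fibroblasts, 1 array per culture. The cells came from E13.5 embryos and were collected at passage 3 after growth in medium with fetal calf serum. The labels name no stressor, so the levels are those of cells in routine culture. Cultures carry the numbers 1 to 3 within each genotype, and the labels mention 3 pairs, but not whether a shared number stands for a shared litter or day. They do not name the deleted part of Zmpste24 or say whether each culture came from 1 embryo, so p-values measure the spread between these cultures.

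As background, cells that load the ER with more unfolded protein than it can fold activate 3 sensors in the ER membrane. IRE1, encoded by Ern1, splices the Xbp1 mRNA; PERK, encoded by Eif2ak3, phosphorylates the translation factor eIF2; and ATF6 is cut to release a transcription factor. Phosphorylated eIF2 lowers general translation but favours translation of Atf4, and the kinase GCN2 feeds into the same step when amino acids run short. ATF4 in turn activates genes for amino acid synthesis and uptake. A probe set reads the amount of a transcript, so Xbp1 splicing, Atf4 translation and ATF6 cleavage were not measured.

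Promoter sequences are shown because the ER branch and the amino acid branch are known for different response elements. In the RefSeq promoter table (build GRCm38.p6), 32 of the 36 members had a window of 250 bases before the annotated start. The ER stress response element was searched on both strands as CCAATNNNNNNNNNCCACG. It occurred in 8 members (Hspa5, Hsp90b1, Calr, Canx, Creld2, Dnajc3, Pdia6 and Syvn1), or 25.0% of members with a window, against 37 of all 32851 windows (0.113%). By role these were 6 of 9 chaperone genes, 1 of 3 disulfide isomerase genes and 1 of 4 degradation genes. The related second element, ATTGG and CCACG with 1 free base between them, occurred in Herpud1 alone (0.0304% of all windows). The core of the amino acid response element, TGATGNAAN, occurred in Asns, Atf3, Chac1 and Herpud1 (12.5% of members, 3.44% of all windows). By role these were 1 of 6 synthesis genes, 1 of 4 transcription factor genes, 1 of 3 feedback genes and 1 of 4 degradation genes. Most synthesis genes thus had no match in this window. TGACGTGG occurred in no member (0.563% of all windows), and CCAAT, which every match of the first element contains, in 24 members (75.0% against 33.8%). A match is a description of letters and no evidence that a factor binds. The last 150 bases before the start are printed 5′ to 3′ for 5 members, with the fixed letters of the element in capitals.
Hspa5 promoter (chr2:34771940-34772089, plus strand; ER stress response element at -65 to -47 from the start): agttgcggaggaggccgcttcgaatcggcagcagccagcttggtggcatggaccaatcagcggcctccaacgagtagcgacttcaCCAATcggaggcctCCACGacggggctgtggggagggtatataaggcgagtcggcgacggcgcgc
Dnajc3 promoter (chr14:118937782-118937931, plus strand; the same element at -105 to -87): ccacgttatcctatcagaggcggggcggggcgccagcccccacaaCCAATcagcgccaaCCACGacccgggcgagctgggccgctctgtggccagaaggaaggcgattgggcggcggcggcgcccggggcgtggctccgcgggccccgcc
Hsp90b1 promoter (chr10:86705445-86705594, minus strand; the same element on the other strand at -107 to -89): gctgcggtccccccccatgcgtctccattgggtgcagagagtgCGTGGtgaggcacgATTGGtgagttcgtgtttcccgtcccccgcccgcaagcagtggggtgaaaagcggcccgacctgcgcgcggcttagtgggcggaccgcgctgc
Herpud1 promoter (chr8:94386279-94386428, plus strand; amino acid element on the other strand at -113 to -105 and the second ER stress element at -52 to -42): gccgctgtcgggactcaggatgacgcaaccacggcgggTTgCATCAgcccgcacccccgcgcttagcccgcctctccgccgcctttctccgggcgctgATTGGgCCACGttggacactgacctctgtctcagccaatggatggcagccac
Asns promoter (chr6:7693210-7693359, minus strand; amino acid element at -23 to -15): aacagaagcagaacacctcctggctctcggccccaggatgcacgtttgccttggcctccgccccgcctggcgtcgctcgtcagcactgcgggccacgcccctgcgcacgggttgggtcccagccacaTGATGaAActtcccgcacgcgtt
The first 3 are genes of ER folding, Herpud1 holds both kinds of element, and Asns carries the amino acid element next to its start.

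Zmpste24 itself was 3850, 2249 and 2043 in wild-type cultures 1, 2 and 3, and 365, 182 and 226 in the Zmpste24-/- cultures. All 11 fibroblast markers on the array passed the brightness filter, with a summed signal of 101530 to 132393. The arrays of both cultures numbered 1 were set apart from the rest: r over probe sets was 0.985 between them, 0.927 to 0.934 against the other 4, and 0.9801 to 0.987 within those 4. The X-inactivation RNA Xist was 5324, 69.3 and 43.7 in wild type and 6669, 4766 and 6660 in Zmpste24-/-, and the Y-linked gene Eif2s3y had the opposite pattern. The genotypes thus differed in these sex-linked transcripts in numbers 2 and 3 and not in number 1, where genotype is not mixed with them.

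No gene of the set passed the test between the genotypes. In limma over all probe sets, 0 of 36 members were called without a block, as were 0% of all tested genes, and 0 of 36 with the culture number as a block, against 0.0230% of all genes. Adjusted p was 0.9999 for every member without the block and 0.391 to 0.997 with it. Zmpste24 itself, at a log2 difference of -3.31, was not called without the block (adjusted p = 0.987) and was called with it (4.02e-05). The absence of calls without the block is therefore no evidence that the members were unchanged. At an unadjusted p under 0.05, 0 members were reached without the block, and 4 with it (Dnajc3, Psph, Psat1 and Dnajb11), or 11.1% against 9.30% of all tested genes. The members divided into 17 higher and 19 lower in Zmpste24-/-, with a median log2 difference of -0.0028 against -0.0036 over all genes. The difference was under 0.1 in size for 24 members, and for 33 the 95% interval of the block fit lay within 0.5 of 0 on either side. Without the block the intervals were wider, at -0.23 to 0.36 for Hspa5 and -2.30 to 2.21 for Slc7a5. The narrow intervals thus rest on the culture number as a block, and the labels do not say that it marks a pair.

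The members did not lean the same way in the 3 same-numbered pairs. In pair 1, 27 of 36 were higher in Zmpste24-/- (median 0.085), and in pair 2, 23 were lower (-0.08). Pair 3 was near evenly divided, with 19 higher and 17 lower (0.01). Higher in all 3 pairs were 7 members (19.4%, against 15.8% of all genes), and lower in all 3 were 3 (8.33%, against 16.2%). The groups did not overlap for 1 member that was higher, Dnajc3 (2.10% of all genes), and for 0 that were lower (2.65% of all genes). The share higher in all pairs lies near the background.

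**Figure D1:**
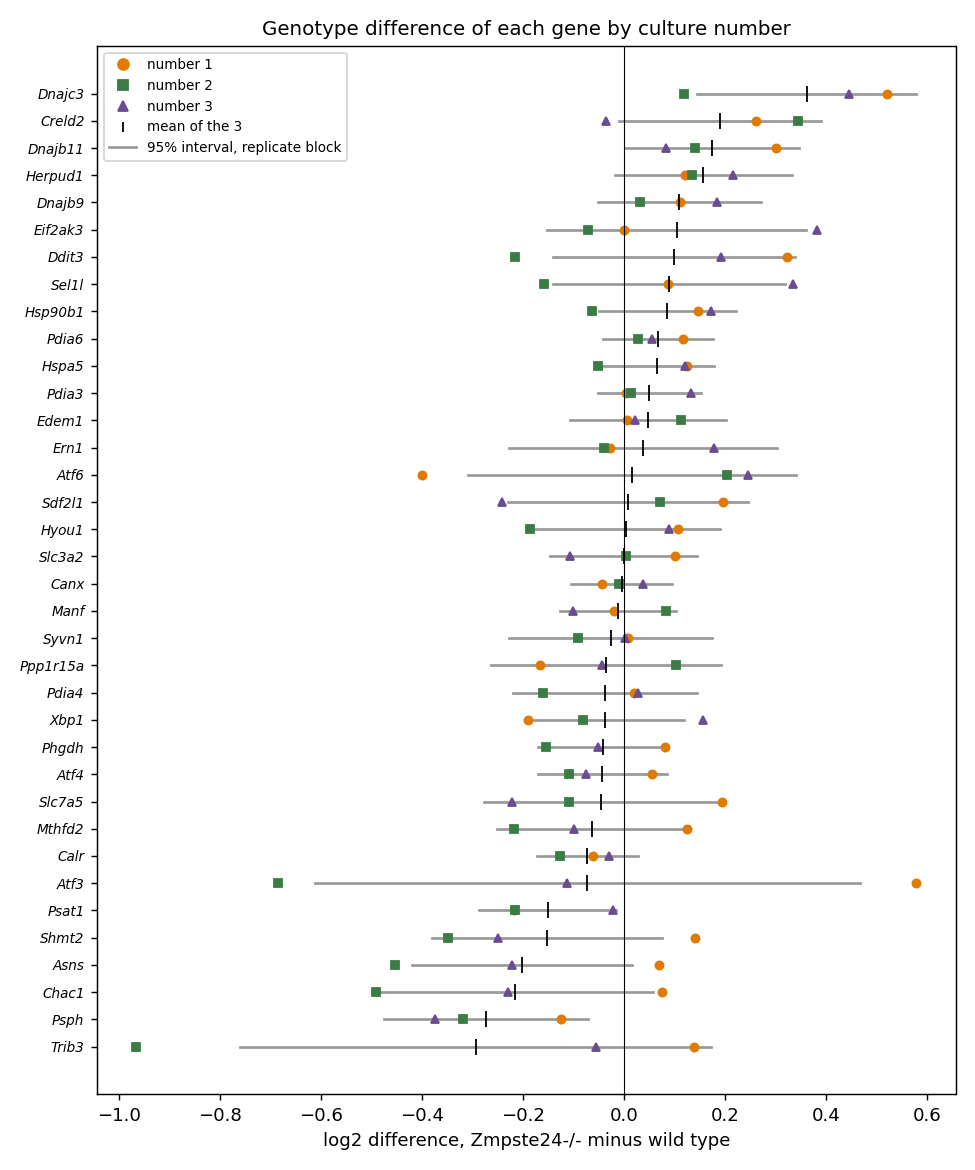
Log2 difference between Zmpste24-/- and wild type for each of the 36 genes; circles, squares and triangles are the pairs numbered 1, 2 and 3, the tick is their mean, and the grey line is the 95% interval of the limma fit with the culture number as a block. Dnajc3 is at the top (0.36) and Trib3 at the bottom (-0.29); the intervals of 32 genes include 0, and the other 4 were not called after adjustment.

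The numbered cultures differed far more. In a fit with genotype as a covariate, the cultures numbered 1 were set against the mean of numbers 2 and 3. The contrast was chosen with earlier results of these data known. Its error is the disagreement between the genotypes within a number, so its SE and p-values do not measure the spread between numbers. Of 36 members 22 were called: 16 were lower in number 1 (44.4%, against 24.2% of all genes) and 6 were higher (16.7%, against 29.1%). The median was -0.16, against 0.05 over all genes, and it was -0.14 within wild type and -0.15 within Zmpste24-/-. Median centring of the arrays lowered the median of all genes by 0.1072 and changed the division of calls over all genes from 3798 higher and 3149 lower to 2968 and 3560; the members then had 4 higher and 18 lower. Between numbers 2 and 3, 0 members were called (smallest adjusted p = 0.733), against 0.0153% of all genes. Of a member's variation over the 6 arrays, a median of 84.1% lay between numbers and 2.26% between genotypes, against 80.3% and 4.11% over all genes.

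Other genes moved with the culture number as well. Of the 11 fibroblast markers 6 were called higher and 2 lower in number 1 (54.5% and 18.2%, against 29.1% and 24.2% of all genes). Lum had the largest difference of these, at 6548 and 7892 in number 1 and 292 to 681 elsewhere. Cell division genes were called lower in number 1 in 28 of 28 cases, with a summed signal of 25362 to 25473 in number 1 and 87595 to 99732 in the other 4 cultures. Macrophage markers were called higher in 13 of 15, with a summed signal of 9279 and 16794 in number 1 and 1789 to 2799 elsewhere; C1qa was 380 and 1008 against at most 9.02. Of 10 epithelial markers 5 were bright enough to be tested, and 2, the keratins Krt18 and Krt19, were called lower in number 1. The summed signal of the 10 was 668 and 764 in number 1 and 3097 to 3564 elsewhere, and without those keratins 468 and 586 against 442 to 727. Epcam was not called (0.28), and Cdh1 was below the filter. Of 12 skeletal muscle markers 6 were tested, and Acta1, Des and Actc1 were called lower in number 1. The 12 summed to 1329 and 1063 in number 1 and 2627 to 4879 elsewhere, and without Acta1 to 723 and 750 against 926 to 1034. Tnnt1 differed by 0.94 the other way without passing, and Myod1 and Myog were below the filter. The part of these cells and of cell division in the differences by number was not tested. In bulk RNA, fewer cells of a type and less RNA per cell cannot be told apart. Within wild type, number 1 also differed from 2 and 3 in Xist, and within Zmpste24-/- it did not.

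**Figure D2:**
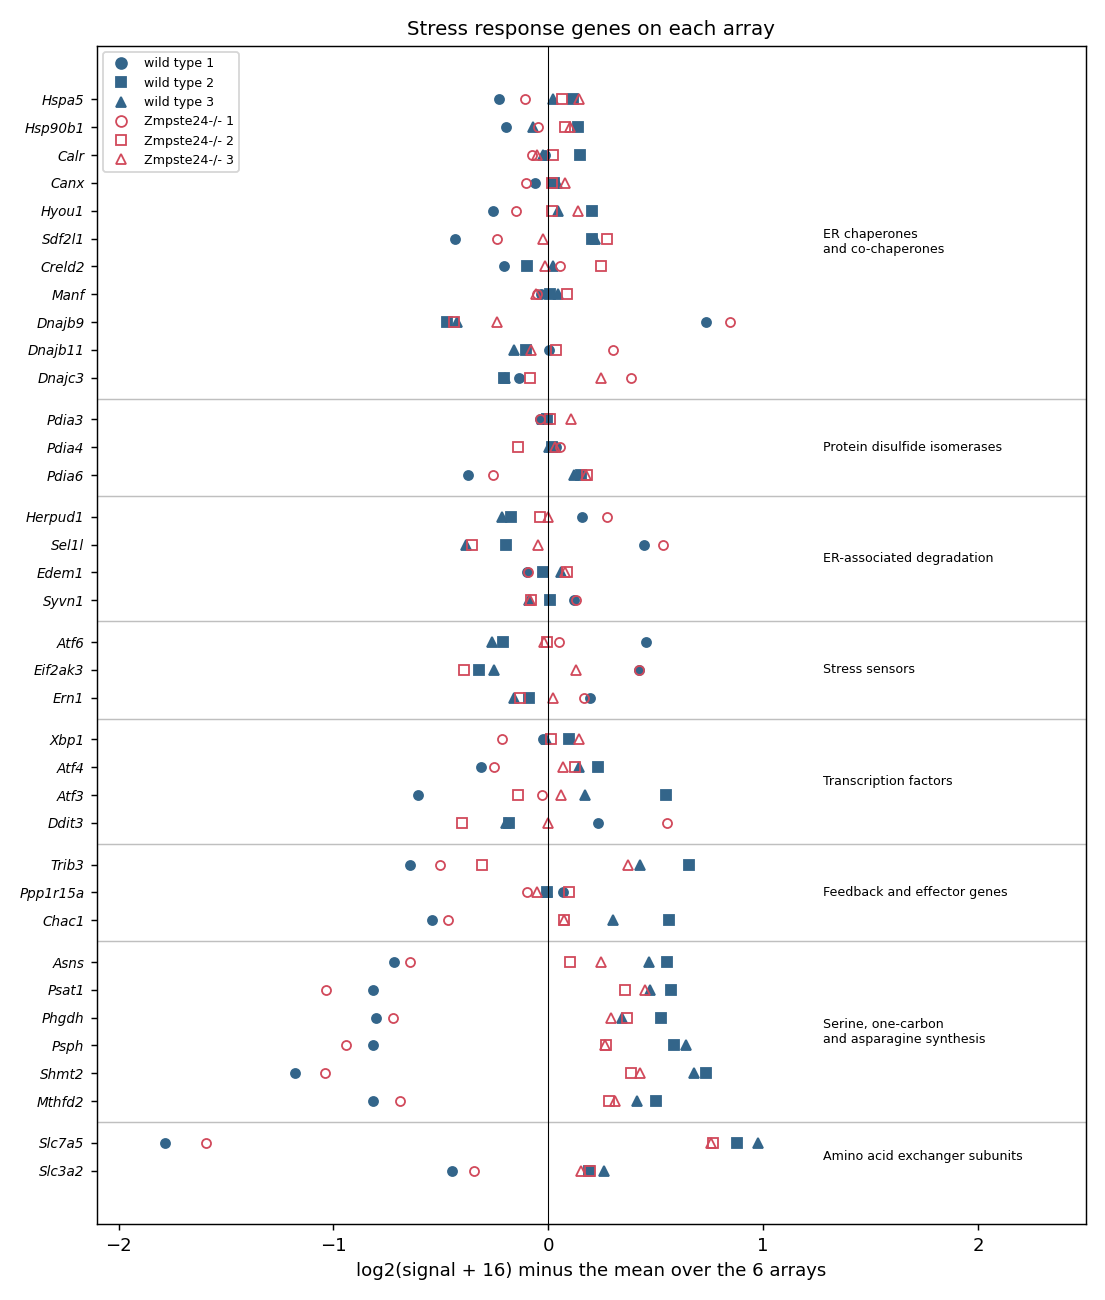
Each gene's log2(signal + 16) on each array, minus its mean over the 6 arrays, grouped by role; filled symbols are wild type, open symbols Zmpste24-/-, and circles, squares and triangles are cultures 1, 2 and 3. The circles stand to the left for the amino acid genes, as for Slc7a5 (-2.53 between number 1 and the others), and to the right for Dnajb9 (1.18) and Sel1l (0.73), in both genotypes.

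The brightest probe sets of the 3 sensors differed between the genotypes by 0.02 to 0.10, with no call. Eif2ak3, which encodes PERK, was 1210, 717 and 752 in wild type and 1210, 681 and 985 in Zmpste24-/-, a difference of 0.10 (SE 0.11 with the block). It was highest in both cultures numbered 1, by 0.63 over the others (SE 0.12, adjusted p = 0.00279). Atf6 was 884, 551 and 531 in wild type and 665, 638 and 633 in Zmpste24-/-, so that only the wild-type culture numbered 1 stood out. Its difference by number was 0.38 (adjusted p = 0.0697), at 0.69 within wild type and 0.06 within Zmpste24-/-. Its 2 other tested probe sets went the other way by number, at -0.32 and -0.68, so no direction is given for Atf6. Ern1, which encodes IRE1, differed by 0.04 between the genotypes and by 0.27 between numbers (adjusted p = 0.107). A dimmer Ern1 probe set was called lower in number 1 (-0.94, adjusted p = 0.0352) and gave 0.62 between the genotypes, with 28.4 in wild-type culture 1 and 114 to 148 in the other 5. No direction by number is therefore given for Ern1 either.

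Among the transcription factors, Atf4 and Ddit3 went opposite ways by culture number. Atf4 was 4954, 7233 and 6795 in wild type and 5152, 6704 and 6449 in Zmpste24-/-. It was lower in number 1 by 0.43 on the log2 scale (SE 0.059, adjusted p = 0.000579), and the genotypes differed by -0.04 (SE 0.056 with the block). Ddit3, which encodes CHOP, a factor of prolonged ER stress, was 2951, 2208 and 2190 in wild type and 3692, 1899 and 2505 in Zmpste24-/-. It was higher in number 1 in both genotypes, by 0.59 (SE 0.11, adjusted p = 0.00278). The genotype difference of 0.10 came from pairs at 0.32, -0.22 and 0.19, and a dimmer probe set gave -0.14. Xbp1 was 8492, 9226 and 8562 in wild type and 7443, 8717 and 9549 in Zmpste24-/-, with differences of -0.04 by genotype and -0.18 by number (adjusted p = 0.0740). Neither passed, and the groups overlapped. The dimmest of 4 tested Xbp1 probe sets was called lower in number 1 (-0.38, adjusted p = 0.0220), and the other 3 were not. Atf3, an early stress factor, was 91.0 in wild-type culture 1 and between 132 and 222 in the other 5.

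The 11 chaperones and co-chaperones were not a uniform group. Between the genotypes 8 were higher and 3 lower in Zmpste24-/- (median 0.06), and 0 were called. By number, 4 were called lower in number 1 (Hspa5, Hsp90b1, Hyou1 and Sdf2l1) and 2 higher (Dnajb9 and Dnajb11). These are 36.4% lower and 18.2% higher, against 24.2% and 29.1% of all genes.

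Hspa5, which encodes BiP, the main Hsp70 chaperone of the ER and the usual readout of the response, was 10748, 13662 and 12813 in wild type and 11719, 13173 and 13938 in Zmpste24-/-. The genotypes overlapped and differed by 0.06 (SE 0.049 with the block). It was lower in both cultures numbered 1, by 0.25 on the log2 scale (SE 0.052, adjusted p = 0.00451), a call that was lost without wild-type culture 1 (-0.21, adjusted p = 0.0567), with no intensity trend (0.113) and after quantile normalization (-0.13, 0.0622). Hsp90b1, the ER Hsp90, and Hyou1, an Hsp70-related exchange factor of BiP, differed by -0.19 and -0.31 by number. Sdf2l1, which acts with BiP and its J-domain partner, differed by -0.50. The lectin chaperone genes Calr and Canx differed by -0.07 and -0.12 by number and did not pass, nor did Manf, a secreted BiP-binding protein (-0.06). The other 2 tested Canx probe sets differed in sign by number: one was called lower in number 1 (-0.29, adjusted p = 0.00682), and the dimmest gave 0.21 without passing.

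The 3 J-domain genes, whose proteins deliver clients to BiP, held the largest genotype difference of the set. Dnajc3, which encodes P58IPK, a co-chaperone and inhibitor of eIF2 kinases, was 1610, 1531 and 1537 in wild type and 2317, 1665 and 2097 in Zmpste24-/-. All 3 Zmpste24-/- cultures lay above all 3 wild-type cultures, and the means were 1559 ± 44.1 and 2026 ± 332 (SD, n = 3 each). The log2 difference was 0.36 (SE 0.17 without the block and 0.094 with it), and it did not pass (adjusted p = 0.391 with the block). The gap in pair 2, at 0.12, was smaller than in pairs 1 and 3, at 0.52 and 0.44. All 5 tested probe sets of Dnajc3 averaged higher in Zmpste24-/-, by 0.10 to 0.36. The groups were separate only on the brightest of these. On the others they overlapped, and pair 2 lay between -0.0050 and 0.30. Dnajb11 (ERdj3) was 2222, 2065 and 1983 in wild type and 2741, 2277 and 2101 in Zmpste24-/-, higher in each pair (0.17, SE 0.074 with the block) but with overlapping groups. It was called higher in number 1 by 0.23 (adjusted p = 0.0433), and that call was lost on leaving out any 1 of 5 cultures (all but wild-type culture 1).

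Dnajb9 (ERdj4), known to bind misfolded clients and to restrain IRE1, was 3808, 1642 and 1699 in wild type and 4115, 1679 and 1934 in Zmpste24-/-. It was 2.28-fold higher in number 1, the largest rise of the set, with the same difference of 1.18 in each genotype (SE 0.074, adjusted p = 1.23e-05). The genotype difference was 0.11 (SE 0.070 with the block). Creld2, an ER-resident secreted protein induced by stress, was 2154, 2315 and 2520 in wild type and 2583, 2944 and 2457 in Zmpste24-/-, a difference of 0.19 with overlapping groups and the opposite sign in pair 3 (-0.04).

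Of the disulfide isomerases, which form and rearrange disulfide bonds in the ER, Pdia6 was 6325, 9122 and 8904 in wild type and 6860, 9301 and 9253 in Zmpste24-/-. It was lower in both cultures numbered 1, by 0.47 on the log2 scale (SE 0.050, adjusted p = 0.000142), and differed by 0.07 between the genotypes. Pdia3 and Pdia4 differed by -0.06 and 0.07 by number and by 0.05 and -0.04 by genotype, with no call. These are values of the brightest probe sets. The other tested Pdia3 probe set, far dimmer, was called higher in number 1, at 617 and 622 against 197 to 305 (1.34, adjusted p = 0.000357), so the Pdia3 probe sets disagree by number.

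Genes of ER-associated degradation, which extracts misfolded proteins for the proteasome, were higher in number 1 where their brightest probe set was called. Sel1l, the scaffold of the HRD1 ubiquitin ligase, was 2649, 1692 and 1485 in wild type and 2816, 1515 and 1878 in Zmpste24-/-. It was higher in number 1 by 0.73 in each genotype (SE 0.11, adjusted p = 0.000702). Herpud1, a membrane component of the same complex, was 1678, 1332 and 1293 in wild type and 1825, 1464 and 1505 in Zmpste24-/-. It was higher in number 1 by 0.32 (SE 0.081, adjusted p = 0.0114), and was higher in Zmpste24-/- in each pair by 0.12 to 0.22, without passing (0.16, adjusted p = 0.587 with the block). Its second probe set, of similar brightness, did not share that lean: it gave 0.0039 between the genotypes, with pair 2 at -0.11, and was also called higher in number 1 (0.45, adjusted p = 0.00334). The Herpud1 call by number was lost without wild-type culture 1 (adjusted p = 0.101), without Zmpste24-/- culture 1 (0.0552), with no intensity trend (0.0555) and after median centring (0.22, 0.145). Syvn1, the ligase HRD1 itself, and Edem1, a lectin that routes glycoproteins to degradation, differed by 0.19 and -0.15 by number and did not pass. A dimmer Edem1 probe set was called lower in number 1 (-0.72, adjusted p = 0.000872).

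The 3 feedback and effector genes all averaged lower in Zmpste24-/- (median -0.22), with no call. Trib3, a pseudokinase induced by ATF4 and CHOP, was 232, 593 and 504 in wild type and 257, 296 and 484 in Zmpste24-/-. Its genotype difference of -0.29 (SE 0.20 with the block) was the lowest of the set but came from pair 2 (-0.97, against 0.14 and -0.05), and its other probe set gave 0.03. By number it was lower in number 1 by 0.86 on the log2 scale (SE 0.21, adjusted p = 0.0114), and without wild-type culture 1 by 0.53 (adjusted p = 0.112), which did not pass.

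Chac1, a glutathione-degrading enzyme downstream of ATF4, was 619, 1347 and 1122 in wild type and 652, 953 and 955 in Zmpste24-/-. It was lower in number 1 by 0.76 on the log2 scale (SE 0.13, adjusted p = 0.00152). Its genotype difference was -0.22 (SE 0.12 with the block), with pair 1 at 0.07. Ppp1r15a (GADD34), which directs a phosphatase to eIF2, lay between 692 and 794 on all 6 arrays.

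The genes of serine, one-carbon and asparagine synthesis showed the clearest pattern of the set: all 6 were called lower in number 1, by a median of 1.23 on the log2 scale. On their brightest probe sets they were also all lower in Zmpste24-/-, by a median of 0.15, with 0 called, while a second probe set of Mthfd2 gave 0.07. That lean was not shared by the pairs: all 6 were lower in pair 2 (median -0.27) and in pair 3 (-0.16), and 4 of 6 were higher in pair 1 (0.08), the pair without a difference in Xist. Whether the sex-linked difference bears on it was not tested.

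Phgdh, Psat1 and Psph encode the 3 successive enzymes of serine synthesis. Phgdh was 5251, 13198 and 11651 in wild type and 5559, 11853 and 11247 in Zmpste24-/-. Psat1 was 3557, 9329 and 8703 in wild type and 3057, 8033 and 8576 in Zmpste24-/-. Psph was 681, 1828 and 1897 in wild type and 623, 1462 and 1459 in Zmpste24-/-. For each of the 3, both cultures numbered 1 lay far below the other 4, while the genotypes overlapped. By number the differences were -1.14 for Phgdh (SE 0.059, adjusted p = 5.47e-06), -1.39 for Psat1 (SE 0.063, adjusted p = 3.96e-06) and -1.32 for Psph (SE 0.093, adjusted p = 2.04e-05). By genotype they were -0.04, -0.15 and -0.27, with SE of 0.056, 0.059 and 0.088 with the block. Psph and the brightest Psat1 probe set were lower in Zmpste24-/- in each pair, and their adjusted p with the block were 0.484 and 0.531. The other Psat1 probe set gave -0.05 between the genotypes, with pair 1 at 0.04.

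Shmt2 and Mthfd2 encode mitochondrial enzymes that carry the serine-derived carbon into folate. Shmt2 was 1072, 4080 and 3925 in wild type and 1184, 3201 and 3300 in Zmpste24-/-, 3.21-fold lower in number 1 (log2 difference -1.66, SE 0.11, adjusted p = 1.26e-05). Mthfd2 lay at 1479 and 1615 in number 1 and between 3189 and 3712 in the other 4 (-1.13, adjusted p = 2.86e-05). Asns, asparagine synthetase and the textbook ATF4 target, was 2534, 6131 and 5772 in wild type and 2661, 4470 and 4949 in Zmpste24-/-. Within numbers 2 and 3 both Zmpste24-/- cultures lay below both wild-type cultures, and in number 1 the Zmpste24-/- culture lay slightly above wild type. Its difference was -1.02 by number (SE 0.10, adjusted p = 9.53e-05) and -0.20 by genotype (SE 0.094 with the block, adjusted p = 0.578).

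The exchanger of large neutral amino acids is built of a transport subunit, Slc7a5 (LAT1), and a heavy chain, Slc3a2 (CD98). Slc7a5 was 345, 2263 and 2429 in wild type and 396, 2096 and 2082 in Zmpste24-/-. The cultures numbered 1 had a mean of 370 and the others 2218 ± 163 (SD, n = 4), 5.99-fold more, the largest difference of the set by number (-2.53, SE 0.11, adjusted p = 3.34e-06). Slc3a2 lay at 3115 and 3341 in number 1 and between 4723 and 5088 in the others (-0.59, adjusted p = 0.000190). The genotypes differed by -0.05 for Slc7a5 and by -0.00075 for Slc3a2.

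**Figure D3:**
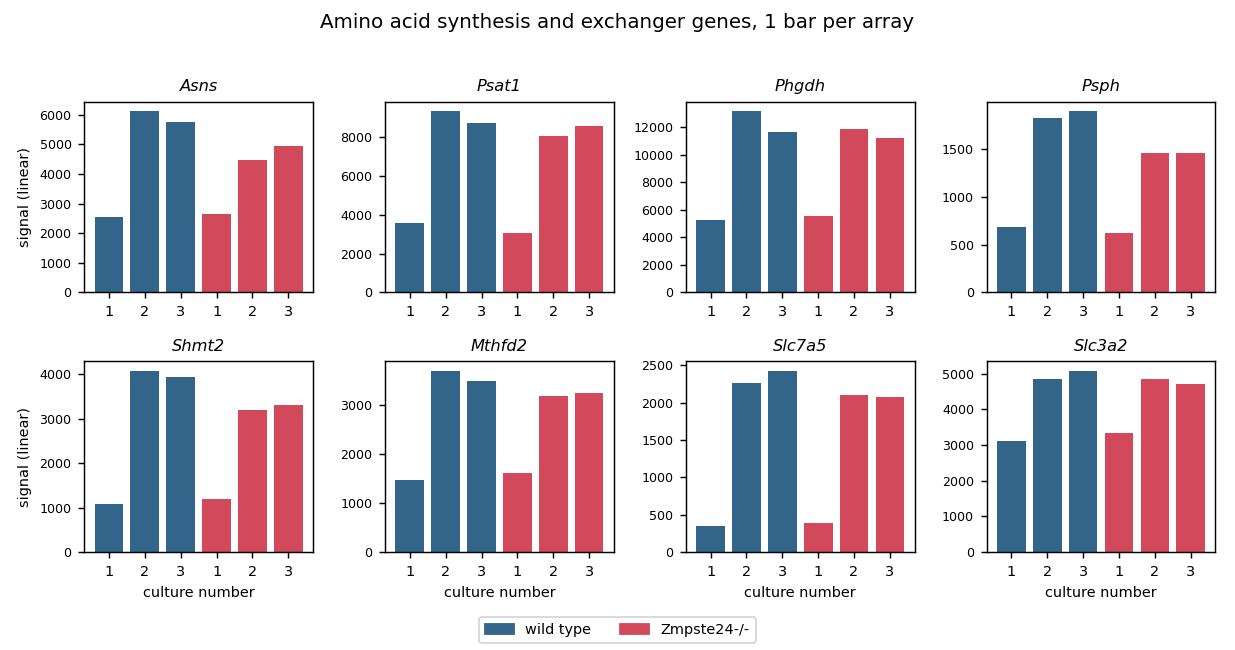
Signal on a linear scale for 8 genes of amino acid synthesis and exchange, 1 bar per array, with wild type in blue and Zmpste24-/- in red and the culture number under each bar. In each panel both bars numbered 1 are the lowest of the 6, for Slc7a5 at 345 and 396 against 2082 to 2429.

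The difference by number had the same sign in both genotypes for 34 of 36 members. The arrays numbered 1 stood apart as a whole in both genotypes. No share over all genes is given beside this count, so it is not read as a trait of the set. The test of the difference between genotypes in this contrast, an interaction term in limma over all probe sets, called 0 members (smallest adjusted p = 0.899), against 2 of all tested genes (0.0153%). At an unadjusted p under 0.05 it reached 4, or 11.1% against 4.79% of all genes: Atf6, Atf3, Asns and Shmt2. Each had the larger size in wild type on its brightest probe set. For Atf6 a dimmer probe set gave -0.26 within wild type and -0.39 within Zmpste24-/-, and the dimmest gave -0.79 and -0.57. Atf3 was lower in number 1 by 0.97 on the log2 scale within wild type and differed by 0.01 within Zmpste24-/-. Asns differed by -1.23 and -0.82 and Shmt2 by -1.88 and -1.44.

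**Figure D4:**
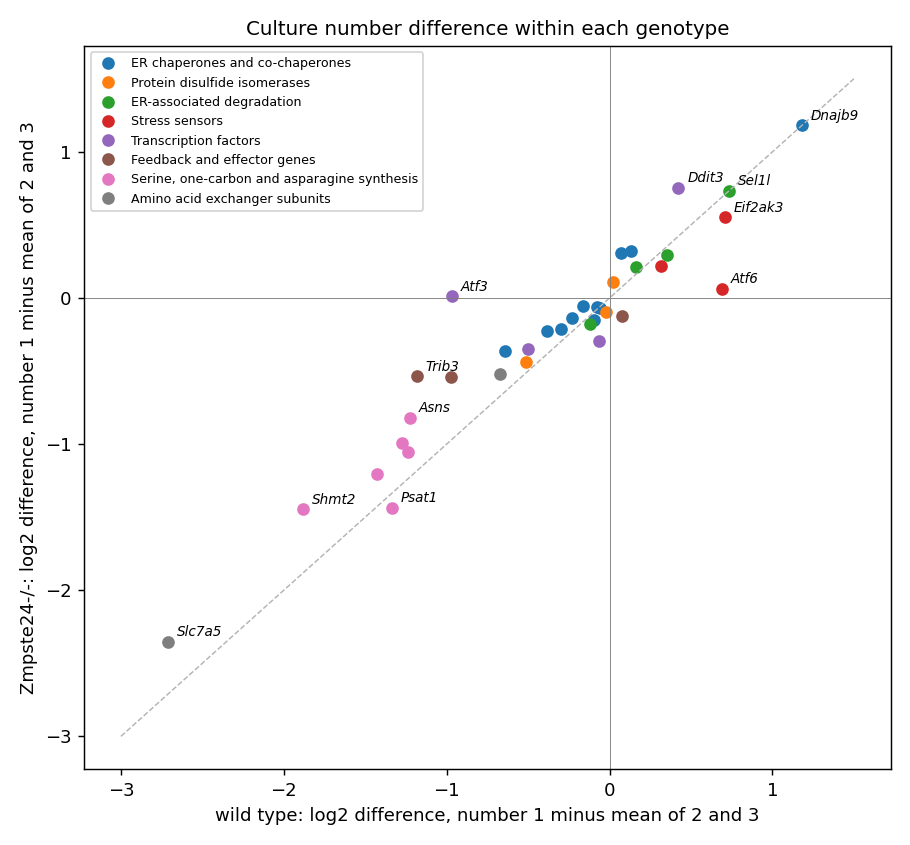
Difference between number 1 and the mean of numbers 2 and 3 (log2) within wild type (horizontal) and within Zmpste24-/- (vertical), 1 point per gene, coloured by role, with the line of equal differences dashed. Slc7a5 lies at -2.71 and -2.35, Dnajb9 at 1.18 in both, and Atf3 and Atf6 lie near 0 on the vertical axis only.

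Genes of the same pathways outside the set, from textbook lists, were read in the same fits. Between the genotypes 0 were called in any of these lists, with or without the block. Of 19 cytosolic aminoacyl-tRNA synthetase genes, many of them known ATF4 targets, 16 were lower in Zmpste24-/- (median -0.08), among them Sars at -0.19 (lower in each pair) and Farsb at -0.29. By number 17 of the 19 were called lower in number 1 (89.5%, against 24.2% of all genes, median -0.46) and 0 higher. Of 30 other ATF4 and CHOP targets, 13 were called lower in number 1 and 5 higher (43.3% and 16.7%, against 24.2% and 29.1% of all genes). In that list Ddit4, an inhibitor of mTORC1, and the amino acid transporter Slc38a2 differed by -0.34 and 0.16 between the genotypes. Of 9 tested genes of folate and serine metabolism, 7 (77.8%) were called lower in number 1 and 1 (11.1%), Aldh1l1, higher (1.43).

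Genes of ER folding and degradation outside the set leaned the other way by number. Of 30 other folding enzymes, 14 were called higher in number 1 and 2 lower (46.7% and 6.67%). Of 21 other degradation genes, 11 were called higher and 2 lower (52.4% and 9.52%). Over all genes the shares were 29.1% and 24.2%. Fkbp7, an ER prolyl isomerase, was 2.35-fold higher in number 1, at a mean of 5145 against 2188 ± 310 (SD, n = 4), and differed by 0.27 between the genotypes (adjusted p = 0.427 with the block). Ppic, an ER cyclophilin, was not called by number (-0.03) and lay higher in all 3 Zmpste24-/- cultures (0.21, adjusted p = 0.484 with the block). Edem3, a mannosidase of degradation, was higher in number 1 by 0.73, and Ubxn4, an ER adaptor of the VCP ATPase, by 0.57. Between the genotypes these differed by 0.17 and -0.33.

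Of 31 translocon and glycosylation genes 7 were called higher and 8 lower in number 1. These shares, 22.6% and 25.8%, lie near the 29.1% and 24.2% of all genes. Sec62, a translocon component, was at 0.76 and Uap1, which makes the sugar donor of glycosylation, at -0.23. Of 16 genes of eIF2, its kinases and its exchange factor, 3 were called higher and 6 lower (18.8% and 37.5%). Impact, an inhibitor of GCN2, was at 0.75 there, and Eif2ak4, which encodes GCN2, at -0.16 (not called). Of 12 other transducers in the ER membrane 5 were called higher and 1 lower (41.7% and 8.33%). Mbtps2, the protease that completes ATF6 cleavage, was higher in Zmpste24-/- in each pair (0.39, adjusted p = 0.377 with the block). Cytosolic heat shock genes had 6 called higher and 13 lower of 22 (27.3% and 59.1%). Hspa1b and Hspa1a, the inducible Hsp70 genes, were lower in Zmpste24-/- in each pair (-0.28 and -0.41), with an adjusted p of 0.341 and 0.398 with the block. These paralogs are near-identical and can share probes. Mitochondrial chaperones and proteases had 1 called higher and 5 lower of 11 (9.09% and 45.5%). Clpp, a matrix protease, was at -0.40 and Yme1l1, an inner membrane protease, at -0.01. Creb3l3 differed by -0.60 and Sardh by 0.13 between the genotypes, both dim genes.

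The other probe sets of the members give a check on these values. The 36 genes had 83 probe sets, and 41 beyond the brightest, in 23 genes, were bright enough to be tested. By number 33 of the 41 had the sign of the gene's brightest probe set, and 26 were called, among them 4 of a sign opposite to the brightest (Atf6, Dnajc3, Ern1 and Pdia3). By genotype 29 had the same sign, and 0 were called. Among the genes that differed in sign, the dimmest of 3 Hspa5 probe sets gave -0.15 between the genotypes, against 0.06 for the brightest, and the dimmest tested probe set of Shmt2 gave 0.43, against -0.15. The 5 probe sets of Dnajc3 had different signs by number, from -0.37 to 0.49 with 1 called each way, though all were higher in Zmpste24-/-. The brightest probe sets of Shmt2 and Phgdh are of a kind that can also bind related transcripts.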

How the data were processed

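Total RNA of 6 cultures was hybridised to Affymetrix Mouse Genome 430 2.0 arrays. The authors deposited 1 linear intensity for each probe set, computed with GCOS, per the submitters' processing notes. The GCOS version and algorithm are not given in the sources used for this work. Each array has a mean of 500 after trimming 2% from each end, so a change in total RNA per cell cannot be seen. Precision is limited by having 3 arrays in each group.

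Of 45101 probe sets, 64 controls and the dimmest 40% (mean signal under 39.4) were left out, and 27022 were tested as log2(value + 16), a scale that understates changes of dim genes. Gene names came from the platform annotation, in which 34945 probe sets have 1 symbol; 34741 of these were matched by gene identifier to a RefSeq table (GRCm38.p6). The test was limma 3.58.1 (R 4.3.3), with a trend on intensity and Benjamini-Hochberg adjustment over all tested probe sets, at 0.05; SE values are limma's. The genotype fit had no block; the alternative had the culture number as a block. Cultures of the same number deviated from their group means together (r = 0.83, 0.59 and 0.57, all over 0.1). The block fit, which is quoted beside the main one, treats the numbers as pairs, but these r could not show that they are pairs. Number 1 stood apart in both genotypes and enters the group means. That raises r for numbers 2 and 3 as well, so their r do not show pairing. Between arrays, wild-type culture 2 had r = 0.983 and 0.980 with Zmpste24-/- cultures 2 and 3. For wild-type culture 3 these were 0.9859 and 0.9851. The fits were run on simulated data with known shifts and independent noise, which does not show their power on these cultures. Figures were drawn with matplotlib 3.10.9.

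The members, gene lists and contrasts were chosen with earlier results of these data known. Members described on every array were the 5 highest and 5 lowest by genotype and by number, the largest genotype difference in each role, and Hspa5, Xbp1, Atf4, Ddit3 and Asns, 21 in all. Up to 2 genes of each pathway list were named, by smallest unadjusted p with the block. Alternatives were other pseudocounts (1 and 64), filters, scalings, weights, gene representatives, thresholds, blocks and each culture left out.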

Additional observations from a re-analysis of the deposited data

How the results depend on the processing

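The count of members called between the genotypes was 0 in every alternative run, the replicate block, cultures 2 and 3 alone and each left-out culture included, and the block changed no call. A fit with 2 blocks, number 1 in the first and the remaining numbers in the second, added after the data were seen, also called 0. The count called by number was 22 and lay between 16 (no intensity trend) and 25 (adjusted p under 0.1), and between 17 and 22 with a culture left out. The median by number was -0.1097 after quantile normalization, -0.2706 after median centring and -0.1883 with all probe sets of a gene averaged, and -0.1788 to -0.1405 with a culture left out. The call of Dnajb11 by number was lost with no filter (adjusted p = 0.0597), median centring (0.395), no intensity trend (0.147) and no genotype term (0.0988). Trib3 lost its call with no intensity trend (0.0648). Xbp1 was called lower in number 1 after median centring (-0.29, adjusted p = 0.0388) and without wild-type replicate 1 (0.0251) or 3 (0.0152), Dnajc3 higher without wild-type replicate 2 (0.0350), and Atf6 higher without Zmpste24-/- replicate 1 (0.69, 0.00539). With the mean of all probe sets Atf6 turned to -0.2097.

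By genotype, Xbp1 turned to 0.0767 with array weights and to 0.0378 in cultures 2 and 3 alone, with or without the replicate block. Ddit3 turned to -0.0117 in those cultures and to -0.0224 with the mean of all probe sets, where Shmt2 turned to 0.0318. The cause was not tested. Leaving out 1 culture weights the cultures numbered 1 unequally between the genotypes, so the genotype differences then moved with the difference by number. They ranged from -0.0353 to 0.1375 for Hspa5, -0.2855 to 0.503 for Dnajb9, -0.1032 to 0.2116 for Pdia6, -0.1561 to 0.3335 for Sel1l, -0.1116 to 0.2467 for Atf6, -0.0805 to 0.3402 for Eif2ak3, -0.1198 to 0.0596 for Xbp1, -0.2092 to 0.0743 for Atf4 and -0.1522 to 0.3244 for Ddit3. The ranges were -0.5398 to 0.0119 for Chac1, -0.6105 to 0.0707 for Asns, -0.597 to 0.3274 for Psat1, -0.4537 to 0.3095 for Phgdh, -0.7496 to 0.1295 for Psph, -0.7803 to 0.3293 for Shmt2 and -0.9495 to 0.7383 for Slc7a5. Dnajc3, Creld2, Dnajb11 and Herpud1 stayed positive and Trib3 stayed negative with each culture left out. The precision of dim genes such as Atf3 and Trib3 is limited by their signal.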

Other observations

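The transcripts of the secreted matrix, the main cargo of the ER in fibroblasts, did not share a direction by culture number. Of 23 tested matrix genes, 7 were called higher and 8 lower in number 1 (median 0.05), and 0 were called between the genotypes. By number these are 30.4% higher and 34.8% lower, against 29.1% and 24.2% of all genes. Their summed signal was 276329 to 276583 in number 1 and 252758 to 274157 in the other 4 cultures. Over the same arrays the serine, one-carbon and asparagine genes were called lower in 6 of 6 cases. Of the tested markers of other cell types, 1 of 4 adipocyte genes was called higher and 1 lower in number 1, 0 and 2 of 7 cartilage and bone genes, 0 and 1 of 5 endothelial genes, and 1 and 1 of 8 neural genes. Of these lists, Adipoq, Cidec, Ibsp, Pecam1, Cdh5, Tie1, Vwf, Elavl3 and Gfap were below the brightness filter.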
